A study of Bos taurus with 16 samples.

Results

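The enzymes that dispose of reactive oxygen and those that make and use glutathione were followed across bovine endometrium and blastocysts. Members were taken by gene name: every probe set whose single symbol in the platform annotation was a superoxide dismutase, catalase, a glutathione peroxidase (GPX), a peroxiredoxin (PRDX), a thioredoxin, thioredoxin reductase or glutaredoxin, an enzyme of glutathione synthesis or recycling, a glutathione transferase (GST or MGST), a heme oxygenase or NQO1. This gave 52 of the 24128 probe sets on the array, for 39 genes. The rule uses names and no measured value, but it was chosen with earlier results of these data known. Where a gene has several probe sets they are told apart by the end of their array ID, as in 1.S1_at. GLRX, TXNIP and GSTP1, which the names would also cover, were the single symbol of 0 probe sets.

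The series measured RNA on Affymetrix bovine arrays from 49 superovulated cows whose endometrium was sampled with a cytobrush, a small brush that lifts cells from the uterine lining. Cows with polymorphonuclear cells (neutrophils) in the brush sample were classed as having subclinical endometritis (SE), and cows with 0 such cells as having healthy endometrium (HE). Samples were taken on day 7, just before the uterus was flushed, and on day 0, 2 h before insemination. The endometrial groups were SE day 7 (3 arrays), HE day 7 (2), SE day 0 (3) and HE day 0 (3), and the blastocyst groups, flushed on day 7, were embryos of SE donors (3) and of HE donors (2). Every cow was superovulated, in both classes and on both days. An array carried RNA of a pool, the blastocyst pools held 10 embryos each, and the labels do not say how many cows a pool of endometrium combined or whether the same cows stood behind pools of day 7 and day 0. P-values therefore measure the spread between pools. In such bulk RNA, fewer cells of a type and less RNA per cell cannot be told apart.

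Values are log2 signals as deposited, and a difference of 1 is a change of signal by a factor of 2. A probe set was kept for testing when it read above 4 on at least 2 arrays of its tissue. The endometrium arrays had medians of 4.18 to 4.30, and the blastocyst arrays 3.08 to 3.12. Array to array, SE day 0 replicate 2 stood apart, with a mean correlation of 0.961 with the other arrays of its day, where the other endometrium arrays had 0.975 to 0.981 by the same measure. Epithelial markers such as EPCAM and the keratins were well measured in the brush samples: 15 of their 16 probe sets passed the filter. For blastocysts, 7 of 9 probe sets of trophectoderm markers passed.

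As background, superoxide is turned into hydrogen peroxide by superoxide dismutases, and the peroxide is removed by catalase, glutathione peroxidases and peroxiredoxins. Glutathione peroxidases draw on reduced glutathione, which glutathione reductase restores with NADPH, and most peroxiredoxins draw on thioredoxin, which thioredoxin reductase restores with NADPH. Glutathione transferases join glutathione to reactive lipids and foreign compounds. Several of these genes, among them HMOX1, NQO1, TXNRD1 and GCLC, are known targets of the transcription factor NRF2. In the uterus the enzymes are known for protecting the lining, the embryo and sperm from oxidants, and their levels change over the oestrous cycle.

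Of the 52 probe sets, 46 passed the filter in endometrium, for 37 genes, and 30 in blastocysts, for 26 genes. Both tissues kept 29 of them, 17 passed in endometrium alone and 1, a probe set of GPX1 (2.A1_at), passed in blastocysts alone. The 5 that passed in neither tissue were both probe sets of SOD3, the secreted superoxide dismutase, the single one of TXNRD3, 1 of 4 for PRDX6 and 1 of 2 for GLRX3. Among those that failed in blastocysts were GCLC, GCLM and GSS, the genes of glutathione synthesis, and GPX2, GPX3, GPX7, GSTA2, GSTM3, GSTT1, HMOX2 and NQO1. Of these GCLM, GPX7 and NQO1 each read above 4 on 1 blastocyst array. Over all probe sets, 13421 passed in endometrium and 11014 in blastocysts. The filter value of 4 was the same in both tissues although the blastocyst arrays had lower medians. Failing it therefore does not show that embryos lack the transcript. No signal is compared between the tissues here, since whether they were normalized together is not given in the sources used.

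Between day 0 and day 7 the members moved in both directions at once. In SE endometrium 11 of the 46 kept probe sets were higher on day 7 and 14 were lower (limma's moderated test, adjusted p under 0.05), which is 54.3% of the members against 50.1% of all 13421 probe sets tested (26.0% higher and 24.1% lower). In HE endometrium 11 were higher and 17 lower, 60.9% of the members against 45.0% of all probe sets (21.8% higher and 23.2% lower). By gene, 9 rose and 11 fell in SE endometrium, and 10 rose and 14 fell in HE endometrium. The median size of the day difference was 0.67 over the members and 0.60 over all probe sets in SE endometrium, and 0.83 and 0.59 in HE endometrium.

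The comparisons within SE and within HE share no array. In both of them 8 member probe sets were higher on day 7 and 14 were lower, while 19.6% and 19.0% of all probe sets did so. The call was opposite for 0 members. A further 3 passed in SE endometrium alone and 6 in HE endometrium alone, which does not by itself show that the day effect differed between SE and HE. Of the 46, 43 had the same sign of difference in both. This share was not worked out for all probe sets, so it does not set the members apart.

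**Figure D1:**
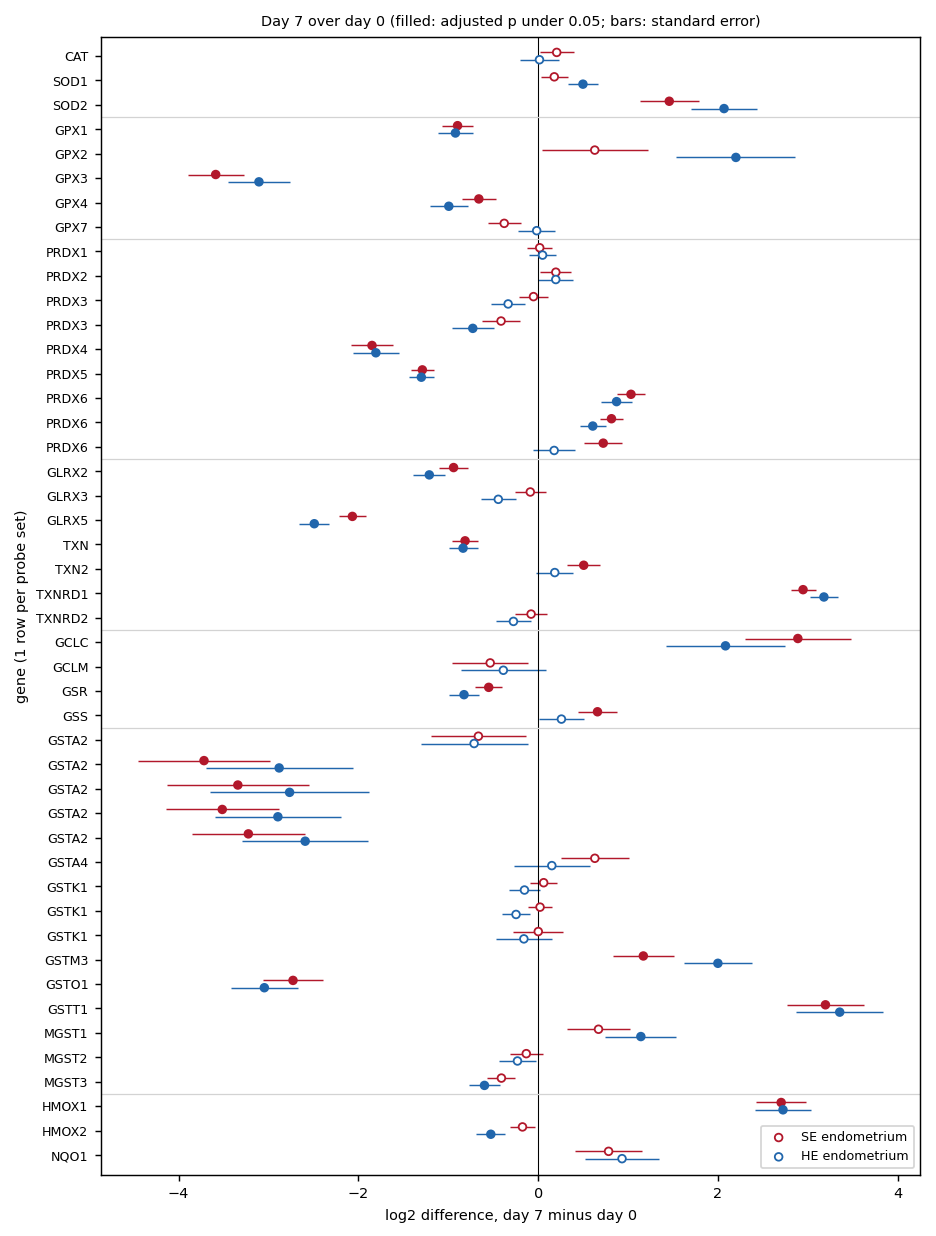
Day 7 minus day 0 difference in log2 signal for the 46 kept member probe sets, 1 row each, grouped by enzyme family, in SE endometrium (red, upper point) and HE endometrium (blue, lower point); bars are standard errors and filled points passed the adjusted threshold of 0.05. Both colours lie far to the right for TXNRD1, GSTT1, HMOX1, GCLC and SOD2 and far to the left for GPX3, GSTO1, GLRX5, PRDX4 and 4 of the 5 GSTA2 rows.

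The superoxide dismutases and catalase, the first step, held 3 kept probe sets. SOD2, the mitochondrial manganese enzyme, read 11.38, 11.46 and 11.69 in the day 7 SE pools, against 9.87, 9.54 and 10.75 in the day 0 SE pools. In the HE pools it read 11.56 and 11.22 on day 7, against 9.90, 9.11 and 8.94 on day 0. Every day 7 pool lay above every day 0 pool of either class. SOD2 rose by 1.46 ± 0.33 in SE endometrium (log2 difference ± SE, adjusted p = 0.00412) and by 2.07 ± 0.36 in HE endometrium (adjusted p = 0.00122). SOD1, the cytosolic copper-zinc enzyme, read 12.81, 12.79 and 12.78 in day 7 SE pools, against 12.67, 12.51 and 12.67 on day 0, a difference of 0.18 ± 0.15 (adjusted p = 0.338). In HE pools SOD1 read 13.09 and 12.70 on day 7, against 12.18, 12.52 and 12.49 on day 0, and it rose by 0.50 ± 0.17 (adjusted p = 0.0322). That call ended without HE day 7 replicate 1 (0.30, adjusted p = 0.25) or without HE day 0 replicate 1 (0.39, adjusted p = 0.106). Catalase (CAT), the peroxisomal peroxide-splitting enzyme, overlapped between the days in both classes, with differences of 0.21 in SE and 0.01 in HE endometrium.

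Of the 5 kept glutathione peroxidases, 3 fell in both classes. GPX3, the secreted plasma form, read 2.85, 2.99 and 2.82 in day 7 SE pools, against 6.49, 7.24 and 5.69 on day 0, and 3.25 and 3.00 in day 7 HE pools, against 6.19, 6.32 and 6.19 on day 0. All 5 day 7 pools were below the filter value of 4 and all 6 day 0 pools above it. GPX3 thus passed the filter through its day 0 readings alone, so this split is no separate support for a fall. The differences and p-values that follow rest on day 7 readings below the filter. The measured differences were -3.59 ± 0.31 in SE endometrium (adjusted p = 9.26e-06) and -3.11 ± 0.35 in HE endometrium (adjusted p = 6.7e-05). Set against the filter value in place of the low readings, GPX3 was at least 5.55-fold lower on day 7 in SE and at least 4.69-fold lower in HE endometrium.

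GPX1, the abundant cytosolic peroxidase, stayed among strong signals while falling: it read 12.27, 12.67 and 12.38 in day 7 SE pools, against 13.44, 13.19 and 13.38 on day 0, and 12.66 and 12.13 in day 7 HE pools, against 13.16, 13.43 and 13.35 on day 0. The fall was 1.86-fold in SE (adjusted p = 0.00194) and 1.89-fold in HE endometrium (adjusted p = 0.00378). GPX4, which reduces lipid hydroperoxides inside membranes, read 11.83, 12.29 and 12.18 in day 7 SE pools, against 12.68, 12.60 and 13.01 on day 0. In HE pools GPX4 read 11.96 and 11.60 on day 7, against 12.77, 12.97 and 12.57 on day 0. Neither class overlapped between its days, and GPX4 fell by 0.66 in SE (adjusted p = 0.0142) and by 0.99 in HE endometrium (adjusted p = 0.00342). In SE endometrium the GPX4 call narrowly ended without SE day 0 replicate 3 (-0.54, adjusted p = 0.0535) or SE day 7 replicate 1 (-0.52, adjusted p = 0.0521).

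GPX2, the epithelial peroxidase first described in the gut, went the other way. It read 9.36, 9.75 and 8.72 in day 7 SE pools, against 7.70, 9.93 and 8.31 on day 0, where replicate 2 held the highest value of all 11 arrays. In HE pools it read 9.77 and 9.75 on day 7, against 6.93, 8.66 and 7.09 on day 0. The difference was 0.63 ± 0.59 in SE (adjusted p = 0.401) and 2.20 ± 0.66 in HE endometrium, where GPX2 rose (adjusted p = 0.0211). Without SE day 0 replicate 2 the SE difference was 1.27 (adjusted p = 0.0617), and without SE day 0 replicate 1 it was 0.15. The HE call ended when any of 4 HE pools was left out, with differences of 1.89 to 2.21 and adjusted p of 0.0627 to 0.0856. GPX7, a form of the endoplasmic reticulum without selenium, overlapped between the days in both classes (-0.38 in SE, -0.02 in HE endometrium). Without SE day 7 replicate 1 the SE difference of GPX7 was -0.58 and passed (adjusted p = 0.0132).

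The peroxiredoxins split. PRDX4, the form of the endoplasmic reticulum, read 9.21, 9.36 and 9.02 in day 7 SE pools, against 11.14, 11.13 and 10.88 on day 0. HE pools gave 9.74 and 8.99 on day 7, against 11.48, 11.23 and 10.81 on day 0. PRDX4 fell 3.6-fold in SE endometrium (adjusted p = 9.89e-05) and 3.5-fold in HE endometrium (adjusted p = 0.000312). PRDX5, found in mitochondria, peroxisomes and cytosol, read 12.31, 12.50 and 12.48 in day 7 SE pools, against 13.76, 13.69 and 13.72 on day 0, and 12.46 and 12.39 in day 7 HE pools, against 13.55, 13.81 and 13.80 on day 0. The pools of 1 day were close to each other beside a fall of 1.29 ± 0.12 in SE (adjusted p = 1.99e-05) and 1.30 ± 0.14 in HE endometrium (adjusted p = 5.27e-05).

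PRDX6, the peroxiredoxin that uses glutathione in place of thioredoxin, rose. Its probe set 1.S1_at read 12.82, 13.06 and 12.88 in day 7 SE pools, against 11.94, 11.89 and 11.84 on day 0, and 12.67 and 12.77 in day 7 HE pools, against 11.65, 11.75 and 12.14 on day 0. The rise was 1.03 ± 0.15 in SE (adjusted p = 0.000309) and 0.87 ± 0.17 in HE endometrium (adjusted p = 0.00218). A further probe set, 2.S1_a_at, rose by 0.82 in SE and 0.61 in HE endometrium (adjusted p = 0.000492 and 0.00653), although the HE call ended without HE day 7 replicate 2 (0.55, adjusted p = 0.0515). The probe set 3.S1_s_at, of a design that can read more than 1 transcript, rose by 0.72 in SE endometrium (adjusted p = 0.0168), a call that ended without SE day 0 replicate 1 (0.65, adjusted p = 0.0557) or SE day 7 replicate 1 (0.67, adjusted p = 0.0514), and differed by 0.18 in HE endometrium (adjusted p = 0.575). PRDX1 and PRDX2, the cytosolic peroxiredoxins, read between 12.22 and 13.04 on every endometrium array, with day differences of 0.02 to 0.20 that did not pass. PRDX3, the mitochondrial form, had 2 kept probe sets. The one that read 8.85 to 9.95 fell by 0.73 in HE endometrium (adjusted p = 0.029) and differed by -0.41 in SE endometrium (adjusted p = 0.129), or -0.24 without SE day 7 replicate 2, while the one that read 10.77 to 11.43 differed by -0.05 in SE and -0.33 in HE endometrium without passing. The HE call for PRDX3 ended when any of 4 HE pools was left out.

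In the thioredoxin and glutaredoxin system, TXNRD1 rose while its substrate TXN fell. TXNRD1, the cytosolic selenoenzyme that keeps thioredoxin reduced, read 12.58, 12.58 and 12.56 in day 7 SE pools, against 9.59, 9.70 and 9.58 on day 0. In HE pools it read 12.57 and 12.86 on day 7, against 9.46, 9.75 and 9.40 on day 0. The pools of each group were within 0.4 of each other. TXNRD1 rose 7.71-fold in SE endometrium (2.95 ± 0.14, adjusted p = 2.54e-07) and 9.06-fold in HE endometrium (3.18 ± 0.16, adjusted p = 5.13e-07), the smallest p of all members in either comparison. TXN, the cytosolic thioredoxin, read 12.09, 12.46 and 12.29 in day 7 SE pools, against 13.22, 12.89 and 13.17 on day 0. HE pools read 12.07 and 12.13 on day 7, against 13.03, 12.85 and 12.92 on day 0. TXN fell by 0.81 in SE (adjusted p = 0.00104) and by 0.84 in HE endometrium (adjusted p = 0.00209).

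GLRX5, a mitochondrial glutaredoxin needed for iron-sulphur cluster assembly, fell in both classes. It read 10.86, 11.16 and 11.08 in day 7 SE pools, against 13.23, 12.94 and 13.12 on day 0, and 10.83 and 10.57 in day 7 HE pools, against 13.33, 13.24 and 13.01 on day 0. This was 4.19-fold lower in SE (adjusted p = 3.12e-06) and 5.62-fold lower in HE endometrium (adjusted p = 3.01e-06), the smallest p among the members that fell. GLRX2, the other mitochondrial glutaredoxin, read 8.31, 8.31 and 8.39 in day 7 SE pools, against 9.27, 9.07 and 9.50 on day 0, and 8.21 and 7.80 in day 7 HE pools, against 9.25, 9.08 and 9.33 on day 0. GLRX2 fell by 0.94 in SE and by 1.21 in HE endometrium (adjusted p = 0.000777 and 0.000397). The mitochondrial thioredoxin pair differed less: TXN2 rose by 0.51 in SE endometrium (adjusted p = 0.0409) and differed by 0.18 in HE endometrium (adjusted p = 0.494), and TXNRD2 differed by -0.08 and -0.27 without passing. The TXN2 call ended without any 1 of 5 pools, with adjusted p of 0.0537 to 0.126, and its value was smallest without SE day 0 replicate 2 (0.34). GLRX3, a cytosolic glutaredoxin of iron handling, did not pass, at -0.09 in SE and -0.44 in HE endometrium.

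**Figure D2:**
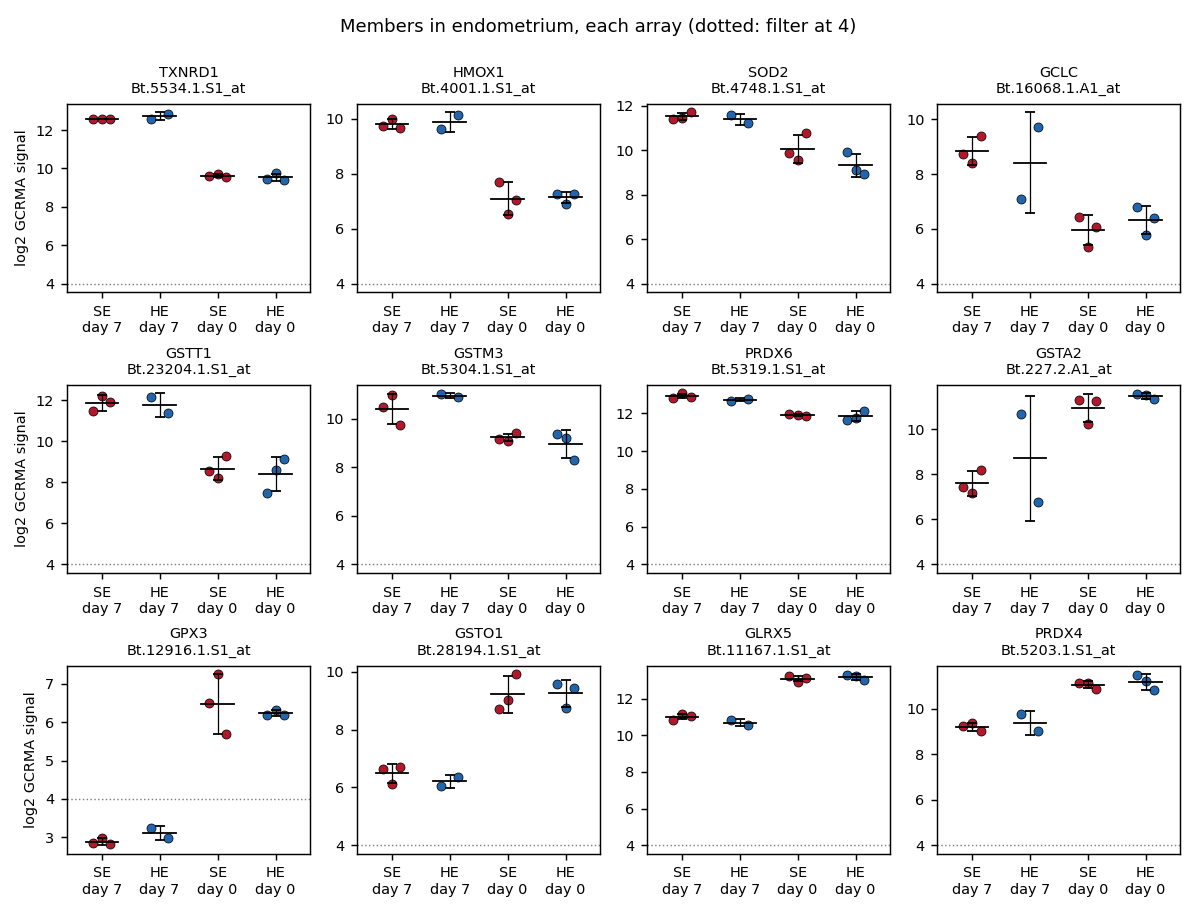
Log2 GCRMA signal of 12 member probe sets on each endometrium array, with SE day 7, HE day 7, SE day 0 and HE day 0 from left to right in each panel; points are arrays (SE red, HE blue), horizontal lines are group means, bars are SDs and the dotted line is the filter at 4. TXNRD1, HMOX1, SOD2, GSTT1 and PRDX6 sit higher in both day 7 groups, GPX3, GSTO1, GLRX5 and PRDX4 lower, and the 2 HE day 7 arrays lie far apart for GCLC (7.10 and 9.71) and GSTA2 (10.67 and 6.75).

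The enzymes of glutathione synthesis and recycling did not move together. GCLC, the catalytic subunit of glutamate-cysteine ligase, whose reaction limits the rate of synthesis, read 8.73, 8.40 and 9.40 in day 7 SE pools, against 6.44, 5.34 and 6.07 on day 0. It rose 7.41-fold in SE endometrium (2.89 ± 0.59, adjusted p = 0.00254). In HE pools GCLC read 7.10 and 9.71 on day 7, against 6.78, 5.77 and 6.41 on day 0. The 2 day 7 pools disagreed: the rise of 2.08 ± 0.66 (adjusted p = 0.027) became 0.78 without replicate 2 (adjusted p = 0.295) and 3.39 without replicate 1 (adjusted p = 0.00128), and the call also ended without HE day 0 replicate 2 (1.81, adjusted p = 0.0816) or replicate 3 (2.13, adjusted p = 0.0537). GCLM, the modifier subunit of the same ligase, read 3.11 to 5.12 over all endometrium arrays, near the filter, with differences of -0.53 ± 0.42 in SE and -0.39 ± 0.47 in HE endometrium that did not pass. With 1 pool left out they ran from -0.82 to -0.09 in SE and from -0.65 to -0.09 in HE endometrium.

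GSS, which adds the last amino acid, read 5.10, 5.01 and 4.54 in day 7 SE pools, against 4.54, 3.87 and 4.26 on day 0, so that the groups touched; it rose by 0.66 in SE endometrium (adjusted p = 0.0304) and differed by 0.26 in HE endometrium (adjusted p = 0.427). The GSS call ended when any of 4 SE pools was left out, with adjusted p of 0.0599 to 0.0979, and the value near the filter limits what it can show. GSR, the reductase that recycles oxidized glutathione, read 8.60, 8.58 and 8.92 in day 7 SE pools, against 9.14, 9.38 and 9.23 on day 0. In HE pools GSR read 8.31 and 8.56 on day 7, against 9.42, 9.13 and 9.22 on day 0. It fell by 0.55 in SE (adjusted p = 0.0126) and by 0.82 in HE endometrium (adjusted p = 0.00306), with no overlap in either class.

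Among the glutathione transferases, single genes moved in opposite directions. GSTT1, of the theta class, read 11.48, 12.22 and 11.90 in day 7 SE pools, against 8.55, 8.20 and 9.28 on day 0, and 12.18 and 11.36 in day 7 HE pools, against 7.50, 8.60 and 9.14 on day 0. GSTT1 rose 9.17-fold in SE (3.20 ± 0.43, adjusted p = 0.000181) and 10.2-fold in HE endometrium (3.36 ± 0.48, adjusted p = 0.000352). GSTM3, of the mu class, rose less: it read 10.48, 10.99 and 9.74 in day 7 SE pools, against 9.19, 9.11 and 9.42 on day 0, and 11.03 and 10.90 in day 7 HE pools, against 9.40, 9.21 and 8.29 on day 0. The rise was 2.25-fold in SE (adjusted p = 0.0159) and 4-fold in HE endometrium (adjusted p = 0.00191). Without SE day 7 replicate 2 the SE value was 0.88 (adjusted p = 0.0609).

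GSTO1, of the omega class, which also reduces dehydroascorbate, read 6.64, 6.12 and 6.70 in day 7 SE pools, against 8.70, 9.02 and 9.92 on day 0. HE pools read 6.03 and 6.37 on day 7, against 9.58, 8.73 and 9.44 on day 0. GSTO1 fell 6.62-fold in SE (adjusted p = 8.9e-05) and 8.26-fold in HE endometrium (adjusted p = 0.00012).

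GSTA2, of the alpha class, was read by 5 probe sets, of which 4 were lower on day 7 in both classes. Probe set 2.A1_at read 7.42, 7.15 and 8.21 in day 7 SE pools, against 11.30, 10.23 and 11.28 on day 0, and 10.67 and 6.75 in day 7 HE pools, against 11.58, 11.51 and 11.34 on day 0. HE day 7 replicate 1 thus stayed close to the day 0 pools while replicate 2 lay with the SE pools of day 7. Over the 4 probe sets GSTA2 fell by 3.22 to 3.72 in SE endometrium (adjusted p of 0.00108 to 0.00555). In HE endometrium the differences were -2.59 to -2.90 (adjusted p of 0.00729 to 0.027). They became -0.81 to -1.41 without HE day 7 replicate 2, with 1 of the 4 still passing (adjusted p = 0.0434), and -4.18 to -4.73 without replicate 1. For 2.A1_at the HE call also ended without any 1 of the HE day 0 pools (adjusted p of 0.0531 to 0.063). The fifth GSTA2 probe set, 1.A1_at, read 4.12 to 6.54 and did not pass (-0.66 in SE, -0.71 in HE endometrium). The 4 probe sets are not independent measurements, and probe sets of GST classes may also read near-identical paralogs, so that the naming of GSTA2 and GSTM3 is uncertain to that extent.

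Fewer of the remaining transferases passed. GSTA4, a GSTA gene like GSTA2, handles the lipid peroxidation product 4-hydroxynonenal. It did not fall with GSTA2 and differed by 0.63 ± 0.38 in SE and 0.15 ± 0.42 in HE endometrium. The SE value of GSTA4 was 1.00 and passed without SE day 0 replicate 1 (adjusted p = 0.043), and was 0.21 without SE day 0 replicate 2. GSTK1, the kappa class of mitochondria and peroxisomes, was within 0.25 of 0 on all 3 probe sets in both classes. Of the membrane-bound enzymes, MGST1 read 11.70, 11.28 and 11.44 in day 7 SE pools, against 10.07, 11.16 and 11.18 on day 0, a difference of 0.67 that did not pass (adjusted p = 0.139) and was 0.30 without SE day 0 replicate 1. MGST1 rose by 1.14 in HE endometrium (adjusted p = 0.0381), and this call ended without any 1 of 4 HE pools (0.84 to 1.43) or without SE day 7 replicate 3 (adjusted p = 0.0516). MGST3 fell by 0.60 in HE endometrium (adjusted p = 0.0182) and differed by -0.41 in SE endometrium (adjusted p = 0.0505); its HE call ended without HE day 0 replicate 1 (-0.56), HE day 0 replicate 2 (-0.53) or HE day 7 replicate 2 (-0.45). MGST2, a leukotriene C4 synthase, did not pass in either class.

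HMOX1, the inducible heme oxygenase that opens heme to biliverdin, carbon monoxide and iron, read 9.75, 9.99 and 9.65 in day 7 SE pools, against 7.71, 6.52 and 7.05 on day 0. In HE pools it read 9.61 and 10.12 on day 7, against 7.24, 6.91 and 7.27 on day 0. Day 7 pools of both classes lay above 9.6 and day 0 pools below 7.8. HMOX1 rose 6.51-fold in SE (2.70 ± 0.28, adjusted p = 2.93e-05) and 6.61-fold in HE endometrium (2.72 ± 0.31, adjusted p = 7.92e-05). HMOX2, the constitutive form, fell by 0.53 in HE endometrium (adjusted p = 0.0218) and differed by -0.17 in SE endometrium (adjusted p = 0.334); the HE call ended without HE day 0 replicate 3 (-0.44, adjusted p = 0.0697) or HE day 7 replicate 2 (-0.45, adjusted p = 0.13). NQO1, a quinone reductase, read 8.45, 8.03 and 9.10 in day 7 SE pools, against 6.95, 8.43 and 7.84 on day 0, and 7.84 and 8.44 in day 7 HE pools, against 7.27, 7.22 and 7.13 on day 0. The NQO1 differences of 0.78 in SE (adjusted p = 0.104) and 0.93 in HE endometrium (adjusted p = 0.0933) did not pass, and the SE value was 0.39 without SE day 0 replicate 1.

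The genes around the enzymes were followed by lists written with earlier results of these data known. Of 11 kept probe sets for regulators of the NRF2 pathway, 2 rose and 1 fell in SE endometrium, and 3 rose and 2 fell in HE endometrium. NFE2L2, which encodes NRF2 itself, averaged 12.22 on day 7 against 12.42 on day 0 in SE pools (-0.20, adjusted p = 0.248), and fell by 0.45 in HE pools (adjusted p = 0.033). KEAP1, its cytoplasmic inhibitor, did not pass on any of its 3 probe sets in either class. MAFF, a small MAF protein of the same complex, rose by 1.69 in SE and 1.44 in HE endometrium, SQSTM1, which binds KEAP1, rose by 0.48 and 0.57 on 1 of its 2 kept probe sets, and DPP3, another KEAP1-binding protein, fell by 1.37 and 1.42.

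Other known NRF2 targets went both ways: of 28 kept probe sets, 11 rose and 7 fell in SE endometrium, and 12 rose and 7 fell in HE endometrium. OSGIN1, an oxidative stress-induced growth inhibitor, rose at least 9.28-fold in SE and 6.89-fold in HE endometrium, with 3 of 3 and 2 of 3 day 0 pools below the filter. Such bounds set readings below 4 to 4. ALDH3A2, a fatty aldehyde dehydrogenase, rose by 3.01 and 3.13. ABCC1, a pump that exports glutathione conjugates, rose at least 3.40-fold and 5.49-fold on its probe set with the larger change, which was below the filter in every day 0 pool. EPHX1, an epoxide hydrolase, rose by 1.99 in SE and 3.63 in HE endometrium. SRXN1, which repairs overoxidized peroxiredoxins, rose by 1.44 in SE endometrium and differed by 1.06 in HE endometrium. AKR1C4, an aldo-keto reductase, fell by 5.02 and 5.19 on its probe set 1.A1_at, and ALDH1A1, a retinaldehyde dehydrogenase, fell by 3.40 and 2.27. SULF2, a heparan sulphate sulphatase, fell by 2.05 and 1.51, and UGDH, which makes UDP-glucuronate, by 1.95 and 2.15. FTH1, the iron-storing ferritin heavy chain, fell by 1.02 in SE and by 1.07 in HE endometrium.

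In the list for glutathione supply and breakdown, 8 of 15 kept probe sets rose and 3 fell in SE endometrium, and 7 rose and 3 fell in HE endometrium. ANPEP, a cell-surface aminopeptidase that splits the dipeptide left by glutathione breakdown, averaged 12.27 on day 7 against 4.34 on day 0 in SE pools, and 12.64 against 4.40 in HE pools. With 2 of 3 day 0 pools below the filter in each class, ANPEP rose at least 188-fold in SE (adjusted p = 6.84e-05) and 218-fold in HE endometrium (adjusted p = 0.000146). GGT1, the gamma-glutamyl transferase that opens glutathione outside the cell, rose at least 2.85-fold in SE and 6.28-fold in HE endometrium, with 2 of 3 and 3 of 3 day 0 pools below the filter. GNMT, a methyltransferase that uses S-adenosylmethionine, rose by 3.53 and 3.37 on its probe set 2.A1_at. CBS, which draws homocysteine toward cysteine, rose by 1.26 in SE and 2.38 in HE endometrium. In HE endometrium 1 of 3 day 0 pools was below the filter, and the rise was at least 2.37. ETHE1, a mitochondrial sulphur dioxygenase, fell by 1.91 and 1.62, and GLO1, a glutathione-dependent glyoxalase, by 1.20 and 1.45. The glutamine carrier SLC1A5 fell by 1.40 in SE endometrium and differed by -0.19 in HE endometrium (adjusted p = 0.729).

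NADPH supply gave 7 higher and 2 lower of 17 kept probe sets in each class. MTHFD2, a mitochondrial folate enzyme, rose on all 3 kept probe sets (1.85 to 2.46 in SE, 1.45 to 1.89 in HE endometrium), and IDH2, the mitochondrial NADP isocitrate dehydrogenase, rose by 1.79 and 2.02. For 1 MTHFD2 probe set, 1 of 3 SE pools of day 0 was below the filter, and its rise in SE was at least 2.34. ME1, the cytosolic malic enzyme, fell by 1.77 and 1.21, and TKT, the transketolase of the pentose phosphate pathway, by 1.12 and 1.20. With 2 of 3 SE pools of day 7 below the filter, the fall of ME1 in SE was at least 1.70. Among 8 kept probe sets for oxidant sources, both of CYBB, the phagocyte NADPH oxidase subunit, rose (1.46 and 1.48 in SE, 1.37 and 1.45 in HE endometrium, 1 of them from below the filter on every day 0 array and so at least 2.34-fold in SE and 1.67-fold in HE), both of XDH, xanthine dehydrogenase, fell (-2.29 and -1.94 in SE, -2.26 and -2.00 in HE endometrium), and AOX1, aldehyde oxidase, fell by 5.27 in SE and 3.94 in HE endometrium.

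Of 15 kept probe sets for metallothioneins and selenoproteins, 1 rose and 7 fell in SE endometrium, and 0 rose and 6 fell in HE endometrium. MT2A, a metal-binding metallothionein, fell by 2.93 in SE endometrium and differed by -1.75 in HE endometrium (adjusted p = 0.068). PSTK, a kinase of the selenocysteine machinery, fell by 0.87 and 1.13. With 1 of 3 SE and 1 of 2 HE pools of day 7 below the filter, these falls were at least 0.83 and 1.07. SELENON, a selenoprotein of the endoplasmic reticulum, was below the filter in every day 7 pool and fell at least 2-fold in SE and 1.43-fold in HE endometrium. SELENOP, the selenium transport protein, rose by 0.65 in SE endometrium and differed by 0.29 in HE endometrium. Peroxisomal genes gave 9 higher and 2 lower of 16 in SE endometrium and 6 higher and 3 lower in HE endometrium, led by PXMP2, a peroxisomal membrane channel (3.72 and 3.67), and HSD17B4, an enzyme of peroxisomal beta-oxidation (2.52 and 2.16). Lists shared the background of 50.1% and 45.0% called given above for SE and HE endometrium.

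**Figure D3:**
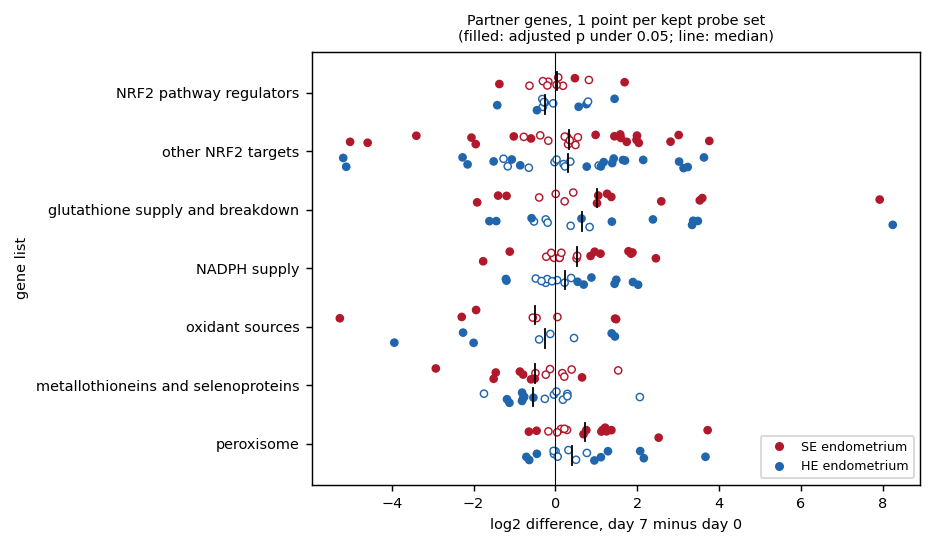
Day 7 minus day 0 difference in log2 signal for the kept probe sets of 7 lists of partner genes, 1 point each, in SE endometrium (red, upper row) and HE endometrium (blue, lower row); filled points passed the adjusted threshold of 0.05 and the short line is the median. Every list except metallothioneins and selenoproteins in HE endometrium holds filled points on both sides of 0, and the point near 8 is ANPEP.

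Markers of cell types also differed between the days. Of 15 kept epithelial probe sets, 2 rose and 11 fell in SE endometrium, and 3 rose and 7 fell in HE endometrium. Their summed level ran from 14.80 to 15.10 in SE and 15.04 to 15.25 in HE pools on day 7, against 15.79 to 16.15 in SE and 15.72 to 15.90 in HE pools on day 0 (log2 of the summed signal). The epithelial marker CDH1 rose in both classes on 1 or both probe sets, while KRT7 and KRT18 fell. Lymphocyte markers had 6 higher and 0 lower of 12 in SE endometrium, and 4 higher and 0 lower in HE endometrium. Of 11 macrophage and dendritic cell probe sets, 2 rose and 2 fell in SE endometrium (median 0.59), and 4 rose and 1 fell in HE endometrium (median 0.98). Of 8 neutrophil probe sets, 1 rose and 2 fell in SE endometrium (median -2.08), and 1 rose and 1 fell in HE endometrium (median -0.49). S100A12, a calcium-binding protein of neutrophils, fell by 4.28 in SE (adjusted p = 0.00091) and by 2.83 in HE endometrium (adjusted p = 0.0189). Of 12 endothelial probe sets only 1 was kept, that of the junction protein CLDN5, and it rose in both classes. CLDN5 averaged 5.78 in SE and 6.60 in HE pools of day 7, and read from 2.35 to 2.42, below the filter, in every day 0 pool. It thus passed the filter through day 7 alone, and 1 such probe set does not describe the endothelial cells. Stromal fibroblast markers had 1 higher and 4 lower of 18 in SE endometrium, and 1 higher and 3 lower in HE endometrium. The gap between 3′ and 5′ GAPDH control probes was 0.273 to 0.389 in HE pools of day 7 and 0.056 to 0.141 in those of day 0, and overlapped between the days in SE pools. For actin the gap separated the days in both classes. It was -0.477 to -0.441 in SE pools of day 7 and -0.433 to -0.418 in those of day 0. In HE pools it was -0.447 to -0.443 on day 7 and -0.442 to -0.343 on day 0. For EIF4E and cyclophilin it overlapped between the days in both classes. The part of these markers and controls in the day differences of the enzymes was not tested.

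SE was set against HE within each day to ask whether inflammation of the lining went with other enzyme levels. On day 7, 0 of 46 member probe sets passed, as did 0 of all 13421 (0%), and at an unadjusted p under 0.05 there were 0 members beside 3.55% of all probe sets. On day 0, 0 members passed while 3 of all probe sets did (0.0224%), and 2 members had an unadjusted p under 0.05 beside 7.60% of all probe sets. The median size of the member differences was 0.18 on each day, beside 0.14 over all probe sets on day 7 and 0.17 on day 0.

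The member with the smallest p on day 7 was GLRX5, at 10.86, 11.16 and 11.08 in SE pools against 10.83 and 10.57 in HE pools (0.33 ± 0.17, adjusted p = 1), or 0.20 without HE day 7 replicate 2. The SE pools lay above the HE pools for 5 members, GLRX5, GLRX2, GSR, the PRDX3 probe set that read above 10 and PRDX6 (1.S1_at), and below them for 1, GPX3, whose day 7 values were all under the filter. That is 6 of 46 beside 16.3% of all probe sets, of which 7.93% lay above and 8.33% below. MGST2 (0.40), GPX4 (0.33) and GSTM3 (-0.56) overlapped between the classes. Without HE day 7 replicate 2 MGST2 had 0.22 and GPX4 had 0.15, and without SE day 7 replicate 3 GSTM3 had -0.23. GSTA2 showed the widest difference, -0.97 to -1.41 on 4 probe sets, and without HE day 7 replicate 1 its sign turned on all 4 (0.34 to 0.84).

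On day 0, SOD2 read 9.87, 9.54 and 10.75 in SE pools, against 9.90, 9.11 and 8.94 in HE pools, a difference of 0.74 ± 0.33 with an adjusted p of 0.656. The pools overlapped, and without SE day 0 replicate 3 the difference was 0.39 (adjusted p = 0.705). GSTK1 (2.S1_a_at) read 8.64, 8.79 and 8.79 in SE pools, against 9.09, 9.26 and 8.93 in HE pools (-0.35 ± 0.14, adjusted p = 0.618). GPX2 differed by 1.09 ± 0.59 and NQO1 by 0.53 ± 0.37, and in both of them SE replicate 2, the pool that stood apart, was the highest of the 6. Without that pool GPX2 differed by 0.45 and NQO1 by 0.19, and without HE day 0 replicate 2 GPX2 differed by 1.64. SE pools lay above HE pools for 1 member, GPX7 (7.34, 7.24 and 7.24 against 6.85, 7.11 and 6.72), and below for 5, namely 3 probe sets of GSTA2, 1 of GSTK1 and 1 of PRDX6 (2.S1_a_at). Over all probe sets 12.8% did not overlap, 3.58% above and 9.24% below.

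The classes were drawn by neutrophils in the brush sample, so neutrophil markers are not a separate check on them. On day 0 all 8 kept probe sets of these markers had a higher mean in SE than in HE pools, with a median difference of 1.80 and 0 past the threshold. Their summed level was 14.07 to 15.16 in SE pools and 13.40 to 14.13 in HE pools of day 0, and 12.11 to 13.84 in SE pools and 13.32 to 13.78 in HE pools of day 7. Over all probe sets tested, 38.9% had a higher mean in SE than in HE pools on day 0 and 50.5% on day 7. Macrophage markers were higher in SE on 10 of 11 probe sets on day 0, and the 4 ciliated cell probe sets on all. The summed level of lymphocyte markers was 11.38 to 12.10 in SE and 10.05 to 10.57 in HE pools of day 0. By probe set, 8 of 12 lymphocyte markers were higher in SE on that day (median 0.11). So were 14 of 18 for stromal fibroblasts (median 0.71) and 11 of 15 epithelial ones (median 0.18). On day 7 all 15 epithelial probe sets had a lower mean in SE than in HE pools, by a median of 0.29. Of 4 controls for RNA integrity, 1 separated the classes: the EIF4E control probes at the 3′ end exceeded those at the 5′ end by 4.05 to 4.52 in SE and 3.67 to 3.91 in HE pools of day 7, and by 3.88 to 4.27 in SE and 3.70 to 3.85 in HE pools of day 0. The same gap overlapped between the classes on both days for GAPDH (0.215 to 0.574 in SE and 0.273 to 0.389 in HE pools of day 7, 0.026 to 0.578 in SE and 0.056 to 0.141 in HE pools of day 0), as it did for cyclophilin and actin. The part of markers and RNA integrity in the member differences was not tested.

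**Figure D4:**
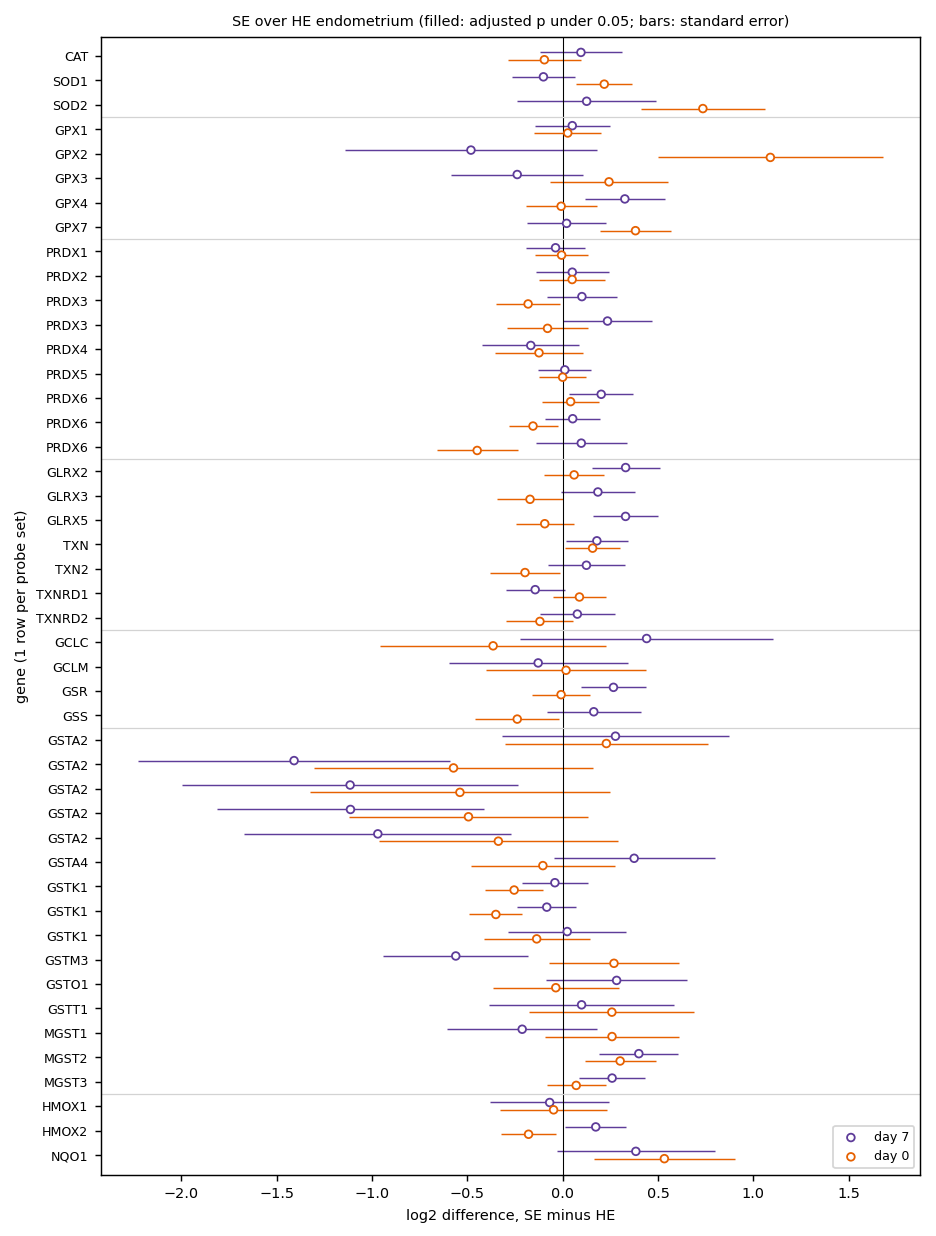
SE minus HE difference in log2 signal for the 46 kept member probe sets, 1 row each, on day 7 (purple, upper point) and day 0 (orange, lower point); bars are standard errors and open points did not pass the adjusted threshold of 0.05. All points are open, and the widest are GSTA2 on day 7 (to -1.41) and GPX2 on day 0 (1.09).

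Whether the day effect itself differed between the classes was tested as the interaction of class and day, the day difference in SE minus that in HE endometrium. Of 46 members 0 passed, as did 0 of all probe sets (0%), and at an unadjusted p under 0.05 there were 0 members beside 3.92% of all probe sets. GLRX5 had the smallest p, with a day difference 0.42 ± 0.23 less negative in SE (adjusted p = 1). GPX2 had the widest value, -1.57 ± 0.89, from a day difference of 0.63 in SE and 2.20 in HE endometrium, and it was -0.93 without SE day 0 replicate 2. GCLC (0.81 ± 0.89), GSTM3 (-0.83 ± 0.51) and SOD2 (-0.61 ± 0.49) did not pass either. Without 1 pool SOD2 had -0.26 (SE day 0 replicate 3), GSTM3 -0.49 (HE day 0 replicate 3) or -0.50 (SE day 7 replicate 3), and GCLC -0.50 (HE day 7 replicate 1) or 2.11 (HE day 7 replicate 2). The calls made in 1 class alone are thus not shown to differ from the other class.

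In blastocysts, embryos of SE donors were set against embryos of HE donors to ask whether the uterine state of the donor went with embryonic enzyme levels. Of 30 kept member probe sets 0 passed, as did 0 of 11014 (0%), and 1 member had an unadjusted p under 0.05 beside 9.34% of all probe sets. That member was GSTO1, at 3.60, 7.10 and 3.94 in SE pools against 8.41 and 8.66 in HE pools. The pools did not overlap, but the SE pools were spread from below the filter to 7.10, and the difference of -3.65 ± 1.19 had an adjusted p of 0.484. The SE pools lay below the HE pools for 5 members (12.6% of all probe sets did so) and above them for 0 (12.4%), beside 25.0% of all probe sets that did not overlap. The gap between 3′ and 5′ control probes of GAPDH was also apart, at 5.47 to 5.85 in SE pools and 4.97 to 5.11 in HE pools, while those of actin, EIF4E and cyclophilin overlapped. The part of RNA integrity in the blastocyst differences was not tested.

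The other 4 were GPX4, GSTK1, TXNRD2 and a probe set of PRDX6. GPX4 read 11.72, 12.01 and 11.99 in SE pools, against 12.48 and 12.06 in HE pools (-0.36 ± 0.20, adjusted p = 0.603), or -0.15 without HE replicate 1. GSTK1 read 5.78, 6.65 and 6.65 in SE pools, against 6.98 and 7.17 in HE pools (-0.72 ± 0.33, adjusted p = 0.585), or -0.43 without SE replicate 1. TXNRD2 read 4.52, 4.52 and 4.06 in SE pools, against 5.79 and 4.65 in HE pools, all of them low signals (-0.85 ± 0.40, adjusted p = 0.59). The TXNRD2 difference was -0.28 without HE replicate 1 and -1.42 without HE replicate 2. PRDX6 differed in sign between its probe sets: 2.S1_a_at read 8.86 to 9.12 in the 3 SE pools against 9.23 and 9.66 in HE pools (-0.45 ± 0.19, or -0.23 without HE replicate 2), while 1.S1_at differed by 0.14 and 3.S1_s_at by 0.20.

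HMOX1 read 8.57, 6.79 and 6.74 in SE pools, against 7.66 and 4.85 in HE pools, a difference of 1.11 ± 1.08 that became -0.30 without HE replicate 2, 2.52 without HE replicate 1 and 0.51 without SE replicate 1. MGST2 read 5.40, 7.23 and 5.40 in SE pools, against 5.40 and 3.76 in HE pools, with 3 arrays at the same value. Its difference of 1.43 ran from 0.61 without HE replicate 2 to 2.25 without HE replicate 1. Of the other kept members TXNRD1 differed by -0.40, and the rest lay between -0.39 and 0.30. PRDX1, PRDX2, TXN, SOD2, CAT and GPX1 (1.S1_at) were strong and even signals in the embryos: SOD2 read 11.77, 11.64 and 12.32 in SE pools against 11.89 and 11.78 in HE pools, and TXN read 12.94, 12.67 and 12.96 against 12.92 and 12.92. TXNRD1 read 9.06, 9.64 and 9.16 in SE pools, against 9.58 and 9.79 in HE pools (± 0.23 SE on the difference, adjusted p = 0.603). In the partner lists 0 probe sets passed in blastocysts, in either endometrial SE over HE comparison, or in the interaction.

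**Figure D5:**
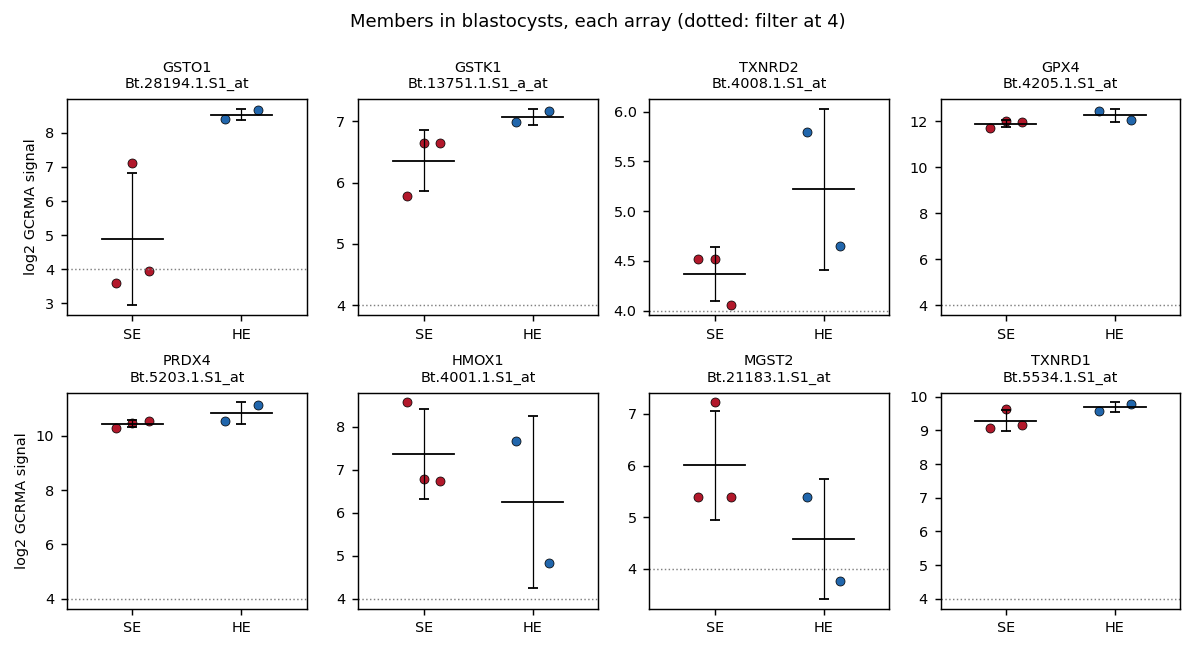
Log2 GCRMA signal of 8 member probe sets on each blastocyst array, SE donors (red) left of HE donors (blue); points are arrays, horizontal lines are group means, bars are SDs and the dotted line is the filter at 4. GSTO1 has 2 SE arrays below the filter and 1 at 7.10 beside HE arrays at 8.41 and 8.66, and HMOX1 spreads from 4.85 to 7.66 within HE.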

How the data were processed

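The 16 arrays were grouped by their titles. Per the labels' protocols, biotin-labelled RNA came from 15 ng of total RNA after 2 rounds of amplification, a method that favours the 3′ end of transcripts. The authors deposited 1 value per probe set and array, a log2 signal made with GCRMA; limma is also named in the submitters' processing notes, and versions are not given in the sources used here. Raw scans and a genome were not used here. All 39 member genes were found by gene number in a RefSeq gene table, with 0 symbols changed.

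Group means were fitted with limma 3.58.1 (R 4.3.3; eBayes, no trend) on the 11 endometrium arrays and separately on the 5 blastocyst arrays. After 112 control probe sets were set aside, the filter of log2 above 4 on 2 or more arrays left 13421 and 11014 probe sets. P-values were two-sided and adjusted within each comparison (Benjamini-Hochberg, all kept probe sets, threshold 0.05). The script was tested on simulated data. Tables and plots used Python 3.11.15, pandas 2.3.3 and matplotlib 3.10.9. The number of arrays limits the precision.

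Members past the threshold were named, up to 10 with the largest change per direction, with the members of smallest p where fewer passed, a set of core enzymes in any comparison, and partner genes of each list. The members, lists and rules were chosen with earlier results of these data known.

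Alternatives were no filter, a filter above 5, a further quantile normalization, array quality weights, an intensity trend with robust prior, the replicate number as a block, means over the probe sets of a gene, fits on the arrays of a comparison alone, and leaving out each array.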

Additional observations from a re-analysis of the deposited data

Results flagged for a closer look

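Signals outside the chosen probe sets also differed between the days. The array carries 3 control probe sets for a bovine glutathione transferase, annotated as LOC327709, for which the RefSeq gene table gives GSTM1 as a synonym; they target different stretches of 1 transcript and were left out of all tests as controls. Day 7 minus day 0, they differed in mean log2 signal by 2.77, 2.21 and 2.11 in SE endometrium and by 3.12, 2.89 and 2.48 in HE endometrium. The probe set for the 3′ end read 7.79, 8.63 and 6.22 in SE pools of day 7 and 7.96 and 7.64 in HE pools of day 7, against 4.56, 5.18 and 4.60 in SE pools and 4.43, 5.04 and 4.58 in HE pools of day 0. SE day 7 replicate 3 was the lowest of the day 7 pools on all 3 probe sets, and also for GSTM3 (9.74).

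A pair of probe sets carried 2 symbols each, so that no gene is named from them. The first read 9.57 to 10.30 on day 7 and 2.10 to 4.27 on day 0, where 3 of 3 SE pools and 2 of 3 HE pools were below the filter value of 4. With those readings set to 4 it was at least 61.8-fold higher on day 7 in SE and 57.4-fold higher in HE endometrium (limma's adjusted p = 3.6e-06 and 1.26e-05). The measured differences of 7.24 in SE and 7.11 in HE endometrium rest on day 0 readings below the filter. The second, at 11.40 to 11.89 on day 7 and 9.31 to 9.90 on day 0, differed by 1.97 in SE and 1.99 in HE endometrium (limma's adjusted p = 2.52e-05 and 6.63e-05). These were noticed after values had been seen. Their cause was not tested.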

How the results depend on the processing

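Of the members called in the day comparisons, 20 of 25 in SE endometrium and 17 of 28 in HE endometrium passed in every fit that left out 1 array and under every other setting run. Leaving out each array gave 22 to 25 members called in SE and 18 to 29 in HE endometrium. The low value came without HE day 7 replicate 2 (18 called, with 7 higher and 11 lower), where HE day 7 has a lone array assumed to vary like the other groups. Members higher ran from 7 to 12 and lower from 11 to 18 over these fits in HE, and 8 to 11 and 13 to 15 in SE endometrium. Without a filter 23 and 22 members were called in SE and HE endometrium, where more probe sets were tested, and GCLC (adjusted p = 0.0799), GPX2 (0.0649), MGST1 (0.0958), PRDX3 (0.0543) and 2 GSTA2 probe sets (0.0532 and 0.0819) missed the threshold in HE endometrium. In SE over HE, the interaction and blastocysts, 0 members were called under every setting run. Over all probe sets the day 0 count of 3 ran from 0 to 11, that of day 7 from 0 to 10 and that of the interaction from 0 to 2.

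Signs turned, without a call on either side, for GSTA2 on day 7 without HE day 7 replicate 1 (0.34, 0.37, 0.62 and 0.84, against -3.16, -2.60, -2.56 and -3.07 for the probe sets in the order 2.A1_a_at, 3.A1_a_at, 3.A1_x_at and 2.A1_at without HE day 7 replicate 2), for PRDX6 (3.S1_s_at) over the days in HE endometrium without HE day 0 replicate 2 (-0.06), for HMOX1 in blastocysts without HE replicate 2 (-0.30, against 2.52 without HE replicate 1) and for PRDX6 in blastocysts as the mean over its probe sets (-0.04). Without HE day 7 replicate 1, signs also turned for GCLC in SE over HE on day 7 (0.44 to -0.86). In the same fit the interaction turned for GCLC (0.81 to -0.50) and for the same GSTA2 probe sets. Those GSTA2 values became 0.92 for 2.A1_a_at, 0.87 for 3.A1_a_at, 0.95 for 3.A1_x_at and 1.38 for 2.A1_at. GSTA4 in SE over HE on day 7 turned without HE day 7 replicate 2 (0.37 to -0.10). The cause was not tested.

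Deviations from group means of same-numbered pools correlated at -0.27 to 0.24, and those of differently numbered pools at -0.23 to 0.27. The deviations within a group cancel out, so with few pools per group these correlations are tied to each other. They cannot decide whether replicate numbers pair the pools. The titles of the HE blastocyst pools also carry another number that differs from the replicate number, and the replicate number was used. With the replicate block, 24 members were called in SE (10 higher, 14 lower) and 25 in HE endometrium (9 higher, 16 lower). Calls for SOD1, MGST1 and HMOX2 in HE and TXN2 in SE endometrium were not made with the block, and no SE over HE call appeared.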

Other observations

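The second of the probe sets with 2 symbols read 9.41, 9.59 and 9.50 in blastocysts of SE donors and 10.37 and 10.41 in those of HE donors. The difference of -0.89 ± 0.12 (SE) did not pass limma's threshold (adjusted p = 0.305).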
